A study of Homo sapiens with 4 samples.

Results

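Aminoacyl-tRNA synthetases are the enzymes that load each tRNA with its amino acid, and 35 of their nuclear genes were examined here in oral cancer cells depleted of STAU1, a protein that binds double-stranded RNA. The members were taken by name from a list of 19 cytosolic and 16 mitochondrial enzymes, with older symbols lacking the final 1 read as the same gene, and were matched by Ensembl identifier to the 67008 genes of the deposited count table. All 35 had a row in it. The RNA came from SAS, a human oral squamous carcinoma line, infected with virus carrying an shRNA against luciferase (the Ctrl group, 2 libraries) or against STAU1 (the shSTAU1 group, 2 libraries). Both groups therefore share infection and hairpin expression, and the labels name 1 knockdown hairpin. The sources used here do not say whether the infected cells were pools or clones, nor whether the 2 libraries of a group came from separate cultures, so p-values measure the spread between these libraries, which may be technical. The cell line label of the samples names C3H 10T1/2, a mouse line, while the organism label is human and the growth protocol names SAS.

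Each synthetase recognises 1 amino acid and its set of tRNAs. The cytosol and the mitochondrion translate separately, and for most amino acids a separate nuclear gene, marked by a final 2, encodes the enzyme that is imported into mitochondria. GARS1 and KARS1 supply both compartments. EPRS1 joins the glutamate and the proline enzyme in 1 chain, and FARSA and FARSB are the 2 subunits of the cytosolic phenylalanine enzyme. EPRS1, IARS1, KARS1, LARS1, MARS1, QARS1 and RARS1 sit together in the multisynthetase complex on the scaffold proteins AIMP1, AIMP2 and EEF1E1. Several cytosolic synthetase genes are known targets of ATF4, the transcription factor of the amino acid response, which binds C/EBP-ATF response elements.

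The libraries held 32206655 to 36301574 counts, and 14303 genes passed the filter on low counts. STAU1 was at 249 and 251 CPM (counts per 1000000 counts of the library) in the Ctrl libraries and at 41.6 and 41.5 CPM in the shSTAU1 libraries, a log2 fold change of -2.59 (SE 0.13, edgeR adjusted p = 0.00103), which was -2.60 with an adjusted p of 0.490 without Ctrl replicate 1. Of the squamous epithelial markers, 7 of 7 reached 1 CPM, and their summed level was 6976 to 7403 CPM in Ctrl and 8576 to 11226 CPM in shSTAU1. The 7 fibroblast markers summed to 17.3 and 22.6 CPM in Ctrl and to 10.7 and 10.1 CPM in shSTAU1. The collagen gene COL1A1 among them, named after its values were seen, was called lower (log2 fold change -1.35, edgeR adjusted p = 0.0360). Another collagen gene of the list, COL1A2, likewise named afterwards, went the other way. It was at 1.19 and 1.68 CPM in Ctrl and 2.15 and 3.62 in shSTAU1 (log2 fold change 1.01, edgeR adjusted p = 0.185). The 3 endothelial markers summed to 18.0 and 15.3 CPM against 17.0 and 7.44, and the 4 leukocyte markers to at most 0.283 CPM. The part of these marker differences in the values that follow was not tested.

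Of the 35 members, 32 could be tested. VARS1 and VARS2, the cytosolic and mitochondrial valine enzymes, and SARS2, the mitochondrial serine enzyme, had 0 counts in all 4 libraries, which allows up to 3 counts in each, or at most 0.0916 CPM in the smallest library. VARS1 (chr6:31777518-31795953) and VARS2 (chr6:30908242-30926459) lie between the outermost HLA genes of chromosome 6 (chr6:29722775-33087201, hg38), where 116 of 137 protein-coding genes (84.7%) had no count, against 24.6% of the 19779 elsewhere. Of the exon bases of SARS2 (chr19:38915266-38930896), 57.0% are shared with another annotated gene. Among protein-coding genes with 50% to 90% of their exon bases shared, 40.4% had no count. The share was 16% for those sharing 10% to 50% and 24.1% for those sharing under 10%. CARS1, the cytosolic cysteine enzyme, was tested on 18, 22, 10 and 13 counts, and it passed the filter through its Ctrl libraries. On either side of it on chromosome 11, NAP1L4 had 1 count over all libraries and OSBPL5 had 609. Whether the counting procedure set these values was not tested, and the genes are only said here to be listed at 0 or near it.

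The synthetase genes spanned a wide range of levels. The CPM were divided by the length in kilobases of the gene's longest annotated transcript, which need not be the one expressed, and the libraries were made by exome capture, whose efficiency differs between genes. In Ctrl, the cytosolic genes had a median of 86.7 CPM per kb (18 genes) and the mitochondrial genes one of 13.2 (14 genes). GARS1, the glycine enzyme, was highest at 334 ± 38.2 CPM per kb (SD, n = 2), followed by AARS1 (alanine) at 276 ± 10.3, KARS1 (lysine) at 245 ± 8.44, TARS1 (threonine) at 193 ± 7.72 and IARS1 (isoleucine) at 131 ± 7.15. The 2 Ctrl values of each of these 5 genes did not overlap those of the next in order. The same 5 were highest per kb of the transcript with the longest coding sequence and per kb of merged exons, lengths tried after seeing the data, but their order changed: TARS1 came second with the former and AARS1 first with the latter. LARS1, QARS1, RARS1, EPRS1 and YARS1 then lay close together, from 93.7 down to 84.7 CPM per kb, with Ctrl values that overlapped between neighbours. The lowest were PARS2, the mitochondrial proline enzyme, at 0.803 ± 0.024 and CARS1 at 0.105 ± 0.017. Over the whole order, 14 of 31 neighbouring pairs overlapped.

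The 2 compartments differed less for some amino acids than for others. The cytosolic gene was above its mitochondrial partner per kb in 13 of 15 pairs in Ctrl and in 13 of 15 in shSTAU1. For alanine the Ctrl means were 276 and 15.5 CPM per kb, and for methionine 78.6 and 2.61. For arginine they were 91.9 and 67.8, a much smaller gap. The exceptions were cysteine, where CARS2 was at 14.2 CPM per kb and CARS1 at 0.105, and histidine, where HARS2 was at 40.5 ± 3.18 and HARS1 at 37.1 ± 0.048. The histidine order rests on the length chosen. Per kb of the transcript with the longest coding sequence HARS1 was at 53.1 and HARS2 at 41.1, so that 14 of 15 pairs had the cytosolic gene on top, while per kb of merged exons they were at 16.5 and 27.2. In CPM, HARS1 was above HARS2 in all 4 libraries.

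**Figure D1:**
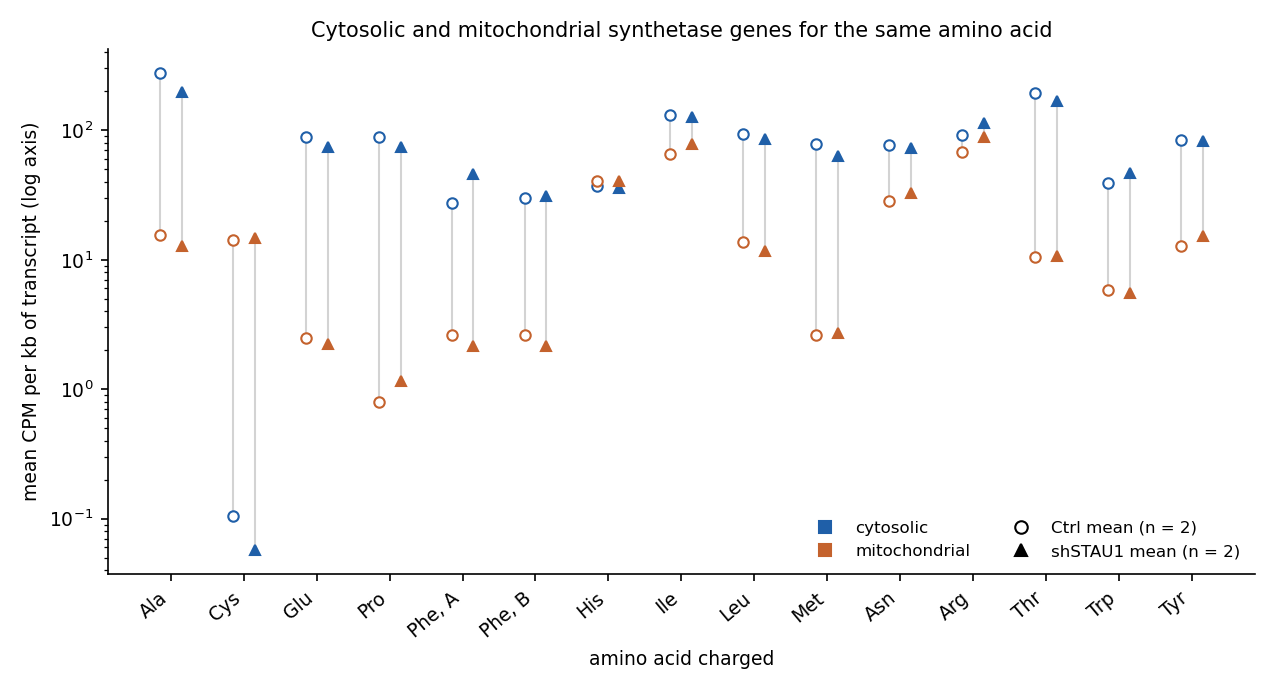
Mean CPM per kb of the longest annotated transcript on a log axis for the cytosolic (blue) and mitochondrial (orange) gene of each amino acid, in Ctrl (open circles) and shSTAU1 (filled triangles), 2 libraries each. With this length the cysteine and histidine pairs have the mitochondrial gene on top, the histidine pair turns with the transcript of the longest coding sequence, and the order within each pair is the same in both groups.

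In a fit on the 2 groups alone, no synthetase change after STAU1 knockdown passed the test. By the quasi-likelihood test of edgeR, with p-values adjusted over all genes by the Benjamini-Hochberg method, 0 of the 32 tested members had an adjusted p under 0.05, where 2.60% of all genes did, and limma-voom also called 0. DESeq2 called 2 of the 32, AARS1 lower and FARSA higher, beside 10.1% of all genes. At an unadjusted p under 0.05, edgeR gave 4 members (AARS1 and MARS1 lower, FARSA and RARS2 higher) beside 24.5% of all genes. The 2 libraries of each group did not overlap for 15 members, 8 higher and 7 lower in shSTAU1, which is 46.9% of those tested beside 56.6% of all genes (28.5% higher, 28.0% lower). CARS1, which passed the filter through its Ctrl libraries, is among the 7 lower. The shares among the members lay below those of all genes by each of these counts. They rest on 32 genes only, and the difference from all genes was not tested. The median absolute log2 fold change of the members was 0.18, against 0.33 over all genes, with a median SE of 0.15 against 0.23.

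**Figure D2:**
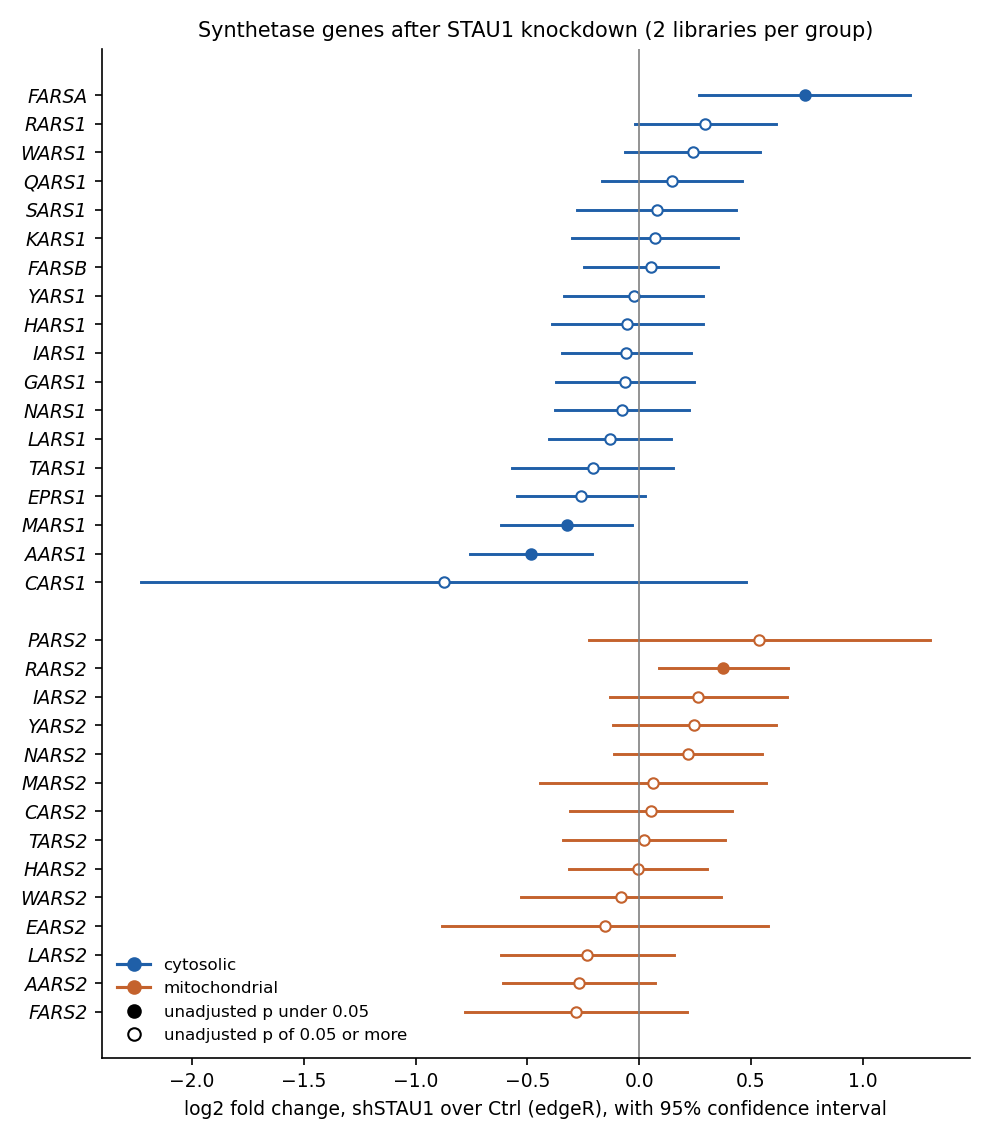
Log2 fold change of shSTAU1 over Ctrl for the 32 tested synthetase genes (points, with 95% confidence intervals from edgeR as lines, n = 2 libraries per group), cytosolic in blue and mitochondrial in orange. Filled points have an unadjusted p under 0.05, which holds for AARS1, MARS1, FARSA and RARS2, and the widest interval is that of CARS1.

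AARS1 and MARS1, the 2 cytosolic genes that were lower at an unadjusted p under 0.05, hold the letters of a C/EBP-ATF response element near a RefSeq start. The core of the element, TGATGNAA, was searched on both strands of the RefSeq promoter windows of GRCh38.p14. These run from 250 bases before to 50 bases after each RefSeq start. Windows were found for 30 of the 35 members, and not for AARS2, LARS1, VARS1, VARS2 or YARS1. The core occurred in 7 of 16 cytosolic and 1 of 14 mitochondrial members with a window, and in 3.62% of all 35116 windows. The 30 members have 39 windows, and a member was counted if any of its windows matched. The share over all windows is per window, so the 2 are not the same measure. The narrower form TTGCATCA, every match of which is also a match of the core, occurred in 6 members, all cytosolic, and in 0.866% of all windows. Stretches of 7 of these genes are printed below on the gene's own strand, 5′ to 3′, with the matched letters in capitals and 12 bases on each side, so that the shared core can be read against its differing surroundings. A match is a run of letters and not a measured binding site.
AARS1, chr16:70289674-70289705, minus strand: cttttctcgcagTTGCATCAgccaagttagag
MARS1, chr12:57488052-57488083, plus strand: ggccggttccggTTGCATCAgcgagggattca
TARS1, chr5:33440955-33440986, plus strand: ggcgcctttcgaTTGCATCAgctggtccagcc
CARS1, chr11:3057406-3057437, minus strand: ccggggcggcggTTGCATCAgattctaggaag
NARS1, chr18:57621803-57621834, minus strand: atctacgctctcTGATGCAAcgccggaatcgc
GARS1, chr7:30594833-30594864, plus strand: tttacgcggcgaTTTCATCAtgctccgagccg
YARS2, chr12:32756075-32756106, minus strand: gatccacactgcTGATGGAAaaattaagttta

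The matches sat close to the RefSeq start in most of these genes. For MARS1 that start lies inside the gene's GENCODE span (chr12:57475445-57517569) and not at its upstream end. Counted from that RefSeq start, the matched letters began at -2 in CARS1, -4 in MARS1 and -33 in GARS1, and at 2 in TARS1 and 14 in NARS1. In AARS1 and YARS2 they began further upstream, at -187 and -197. Of the 7 cytosolic genes with the core, CARS1 is set aside, since it passed the filter through its Ctrl libraries. The other 6 all had a log2 fold change below 0, with a median of -0.14 and a range of -0.48 to -0.057. With CARS1, at -0.87, the median was -0.21. Of the 9 tested cytosolic genes with a window and no match, 2 were below 0, with a median of 0.078 and a range of -0.26 to 0.74. YARS2, the mitochondrial gene with a match, was at 0.25. The median over all genes was 0.0059. This split was noticed in these data, the difference between the 2 sets was given no test, and no member of either set passed the adjusted threshold. The signs of the small values also depend on single libraries: GARS1 turned to 0.055 without Ctrl replicate 1, and IARS1 and NARS1 to 0.015 and 0.030 without shSTAU1 replicate 1.

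AARS1 (chr16:70252295-70289543) had the smallest adjusted p of the members. It was at 986 and 935 CPM in Ctrl and at 698 and 676 CPM in shSTAU1, so that the shSTAU1 mean was 71.5% of the Ctrl mean and the groups did not overlap. This is a log2 fold change of -0.48 (SE 0.12, 95% confidence interval -0.76 to -0.21), with an unadjusted p of 0.00380 and an adjusted p of 0.0684. The value was stable in size, from -0.52 to -0.45 with each library left out in turn, and its adjusted p was 0.00883 without shSTAU1 replicate 1, 0.0162 without shSTAU1 replicate 2 and 0.490 without Ctrl replicate 1. In bulk libraries a lower level in every cell and fewer cells with the transcript cannot be told apart.

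MARS1 (chr12:57475445-57517569), the methionine enzyme, was the next of this set. Its levels were 289 and 276 CPM in Ctrl and 214 and 237 CPM in shSTAU1, again without overlap. Its log2 fold change was -0.32 (SE 0.12, 95% confidence interval -0.62 to -0.034, adjusted p = 0.165). Of its exon bases, 13.3% are shared with ARHGAP9, MIR6758 or DDIT3, and it is not stated whether the counting used strand.

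TARS1 showed how far 1 library can move a value. It was at 810 and 857 CPM in Ctrl and at 623 and 820 CPM in shSTAU1, so that only shSTAU1 replicate 1 lay well below Ctrl. Its log2 fold change was -0.21 (SE 0.16, adjusted p = 0.439), but it was -0.43 with an adjusted p of 0.0320 without shSTAU1 replicate 2, and its value nearest to 0 with 1 library left out was -0.013. The others of the set overlapped between groups apart from CARS1. GARS1 was at 950 and 808 CPM in Ctrl and 813 and 870 in shSTAU1, IARS1 at 633 and 586 against 560 and 611, and NARS1 at 239 and 235 against 209 and 240. CARS1 was at 0.535 and 0.672 CPM in Ctrl and 0.287 and 0.368 in shSTAU1, with a log2 fold change of -0.87 whose interval ran from -2.23 to 0.48.

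FARSA (chr19:12922479-12934037), the catalytic alpha subunit of the phenylalanine enzyme, was the cytosolic gene with the highest fold change. It was at 46.9 and 66.2 CPM in Ctrl and at 82.7 and 106 CPM in shSTAU1, so that every shSTAU1 value lay above both Ctrl values. The log2 fold change was 0.74 (SE 0.20, 95% confidence interval 0.27 to 1.21), with an unadjusted p of 0.00714 and an adjusted p of 0.0841. It ranged from 0.51 without Ctrl replicate 1 to 1.01 without Ctrl replicate 2, with adjusted p-values of 0.516 and 0.128, which were 1.2e-06 without shSTAU1 replicate 1 and 0.0146 without shSTAU1 replicate 2.

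FARSB, the beta subunit of the same enzyme, stayed near its Ctrl level. Its values were 100.04 and 102 CPM in Ctrl and 99.8 and 110.1 CPM in shSTAU1, with a log2 fold change of 0.052 (SE 0.13, 95% confidence interval -0.25 to 0.35). The log2 ratio of FARSA to FARSB CPM was -1.09 and -0.63 in the Ctrl libraries and -0.27 and -0.051 in the shSTAU1 libraries. The ratio was thus higher in both shSTAU1 libraries than in either Ctrl library, by 0.70 on average. With 2 libraries against 2, the smallest two-sided p of an exact permutation test is 0.333, and this difference was given no test.

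**Figure D3:**
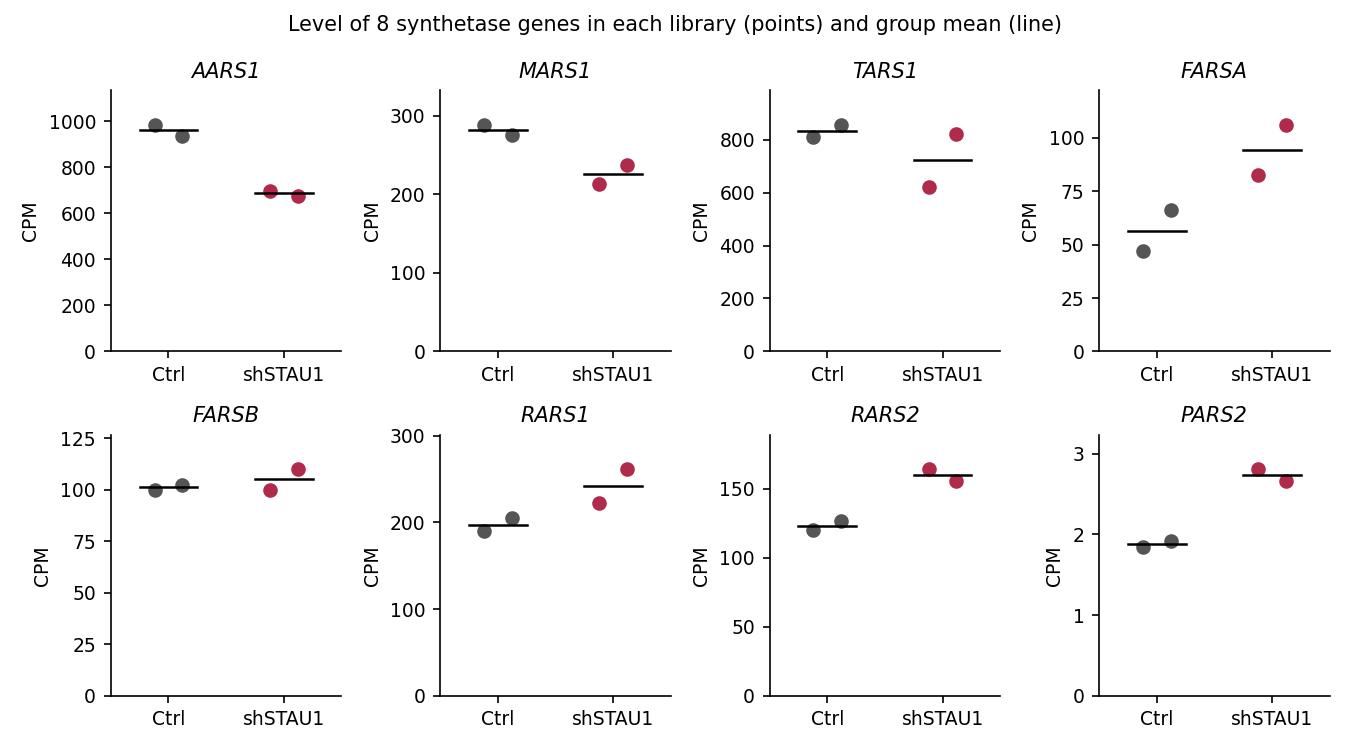
CPM of 8 synthetase genes in each library (points) with the mean of each group (line), axes starting at 0. The 8 were picked from the genes described in the text after their values were seen. The AARS1 and RARS2 libraries of a group lie close together and apart from the other group, the FARSA groups are apart but spread, and only 1 of the 2 shSTAU1 libraries of TARS1 lies well below Ctrl.

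RARS1 and WARS1 also had higher shSTAU1 values without reaching the threshold. RARS1, the arginine enzyme, was at 190 and 205 CPM in Ctrl and at 223 and 262 CPM in shSTAU1, with a log2 fold change of 0.30 (SE 0.14, adjusted p = 0.226), which was 0.42 with an adjusted p of 0.0328 without shSTAU1 replicate 1 and 0.16 with an adjusted p of 0.543 without shSTAU1 replicate 2. WARS1, the tryptophan enzyme, which interferon is known to induce, was at 130 and 115 CPM in Ctrl and 142 and 146 in shSTAU1 (log2 fold change 0.24, adjusted p = 0.295). Of 8 other interferon-responsive genes, 6 were tested and edgeR called 0, beside 2.60% of all genes. At an unadjusted p under 0.05 there was 1 (16.7%), beside 24.5% of all genes. That gene, the transcription factor IRF1, was at 27.8 and 29.5 CPM in Ctrl and 21.6 and 17.1 in shSTAU1 (log2 fold change -0.57, adjusted p = 0.112), the opposite sign to WARS1. GBP2 was at 0.82 and ISG15 at -0.25 on the log2 scale, both from fewer than 5 CPM.

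The complex members moved in both directions, from MARS1 at -0.32 to RARS1 at 0.30 on the log2 scale. All 7 were tested, 3 were above 0 and 4 below, the groups did not overlap for 5 (71.4%, beside 56.6% of all genes), and their median log2 fold change was -0.057, against -0.054 for the 11 tested cytosolic genes outside the complex. EPRS1 was at 426 and 464 CPM in Ctrl and 359 and 384 in shSTAU1 (log2 fold change -0.26, adjusted p = 0.239), and LARS1, the leucine enzyme, at 456 and 437 against 401 and 415 (log2 fold change -0.13). In both genes the groups did not overlap. QARS1, the glutamine enzyme, was at 263 and 262 CPM in Ctrl and 316 and 265 in shSTAU1 (log2 fold change 0.15, but 0.025 without shSTAU1 replicate 1 and 0.26 without shSTAU1 replicate 2), and KARS1 at 579 and 608 against 533 and 714 (log2 fold change 0.071), where the shSTAU1 values fell on either side of Ctrl and the fold change turned to -0.17 without shSTAU1 replicate 2. The scaffolds AIMP1, AIMP2 and EEF1E1 had log2 fold changes of -0.079, 0.22 and 0.26, each with overlapping groups.

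The cytosolic genes nearest to 0 were YARS1, FARSB and HARS1. YARS1, the tyrosine enzyme, was at 281 and 268 CPM in Ctrl and 247 and 292 in shSTAU1, with a log2 fold change of -0.025 and a 95% confidence interval of -0.34 to 0.29. HARS1, the histidine enzyme, was at 129.4 and 129.7 CPM against 111 and 138, with a log2 fold change of -0.054 and an interval of -0.39 to 0.28. Its mitochondrial counterpart HARS2 was at 95.9 and 107 CPM against 98.2 and 104, with a log2 fold change of -0.0048 and an interval of -0.31 to 0.30. Both histidine genes therefore had intervals that reach about as far up as down.

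HARS1 and HARS2 are transcribed away from each other, and their RefSeq starts on chromosome 5 (140691370 and 140691455) lie 85 bases apart. The 184 bases that their promoter windows share, chr5:140691321-140691504, are shown as the stretch that holds both starts, read on the HARS2 strand, with no letters marked.
HARS1 and HARS2: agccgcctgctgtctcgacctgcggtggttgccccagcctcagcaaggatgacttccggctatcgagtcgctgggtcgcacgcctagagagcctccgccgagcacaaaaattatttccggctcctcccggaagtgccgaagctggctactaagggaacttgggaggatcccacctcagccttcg
Neither window held the response element core. Part of the exon bases of each gene (8.38% of HARS1 and 15.8% of HARS2) is shared with another gene, in part with each other on opposite strands.

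Over the cytosolic set, 7 genes were above 0 and 11 below (10 without CARS1). The median log2 fold change was -0.055 (-0.054 without CARS1). It ran from -0.16 without shSTAU1 replicate 2 to 0.027 without shSTAU1 replicate 1. SARS1, the cytosolic serine enzyme, was at 138 and 108 CPM in Ctrl and 135 and 125 in shSTAU1. By structural class, the 16 tested class I enzymes had a median of 0.014 and the 15 class II enzymes one of -0.0048, with 2 members each at an unadjusted p under 0.05.

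Among the mitochondrial genes, 8 were above 0 and 6 below, with a median log2 fold change of 0.037. RARS2 (chr6:87514378-87590003), the mitochondrial arginine enzyme, was the only one of them with an unadjusted p under 0.05. It was at 120.1 and 126 CPM in Ctrl and at 165 and 155 CPM in shSTAU1, without overlap. On the log2 scale the fold change was 0.38 (SE 0.12, 95% confidence interval 0.089 to 0.66), with an unadjusted p of 0.0170 and an adjusted p of 0.121. Its cytosolic partner RARS1 had a fold change of the same sign.

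PARS2 had the largest mitochondrial fold change but few counts. Its counts were 62 and 63 in Ctrl and 98 and 94 in shSTAU1, which is 1.84 and 1.92 against 2.82 and 2.66 CPM, and the libraries of a group lay close together. The log2 fold change was 0.54 (SE 0.33), with a 95% confidence interval of -0.23 to 1.30 and an adjusted p of 0.346. FARS2, the mitochondrial phenylalanine enzyme, was at 9.49 and 10.9 CPM in Ctrl and 8.88 and 7.89 in shSTAU1 (log2 fold change -0.28). AARS2, the mitochondrial alanine enzyme, was at 55.5 and 64.0 CPM against 47.2 and 52.0 (log2 fold change -0.27), the same sign as AARS1. In both the groups did not overlap, and both intervals included 0.

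IARS2, the mitochondrial isoleucine enzyme, was at 267 and 201 CPM in Ctrl and 305 and 257 in shSTAU1 (log2 fold change 0.27, adjusted p = 0.370), with overlapping groups, and its fold change ran from 0.078 without Ctrl replicate 2 to 0.48 without Ctrl replicate 1. YARS2 was at 27.2 and 27.0 CPM against 29.9 and 34.4 (log2 fold change 0.25), and NARS2, the asparagine enzyme, at 70.2 and 73.0 against 75.9 and 90.6 (log2 fold change 0.22), both without overlap. The value of NARS2 was 0.074 without shSTAU1 replicate 2 and 0.35 without shSTAU1 replicate 1. The remaining tested mitochondrial genes overlapped between groups: CARS2, EARS2, LARS2, MARS2, TARS2 and WARS2 joined HARS2 with log2 fold changes of -0.23 (LARS2, which was -0.44 without shSTAU1 replicate 2 and -0.048 without shSTAU1 replicate 1) to 0.061 (MARS2). The value of EARS2, from 8.71 and 11.1 CPM against 6.29 and 11.5, was -0.15 and turned to 0.23 without shSTAU1 replicate 1. TARS2, at 26.9 and 30.5 CPM against 29.5 and 28.8, had one of the smallest fold changes (log2 fold change 0.021). So did CARS2, at 45.0 and 54.8 CPM against 49.2 and 54.3 (log2 fold change 0.053). Without Ctrl replicate 1 the values of TARS2 and CARS2 turned to -0.071 and -0.085.

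Summed over genes, the cytosolic members gave 6645 and 6462 CPM in Ctrl and 5766 and 6412 CPM in shSTAU1, and the mitochondrial members 813 and 801 against 888 and 887. The mitochondrial share of all synthetase counts was 10.9% and 11.0% in Ctrl and 13.3% and 12.1% in shSTAU1. The share was higher in both shSTAU1 libraries, and as a ratio within a library it does not depend on the scaling between libraries. It was given no test, for the same reason as the FARSA to FARSB ratio.

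Within pairs, 10 of 15 had fold changes of opposite sign. The log2 ratio of cytosolic to mitochondrial CPM was lower in both shSTAU1 libraries for 5 pairs (CARS1 and CARS2, MARS1 and MARS2, NARS1 and NARS2, YARS1 and YARS2, EPRS1 and PARS2), higher for 3 (WARS1 and WARS2, FARSA and FARS2, FARSB and FARS2) and overlapping for 7. EPRS1 and FARS2 each stand in 2 pairs, and the CARS1 pair is only listed, since CARS1 passed the filter through its Ctrl libraries. Of single genes 56.6% did not overlap, and the share for ratios of other gene pairs was not computed. The phenylalanine pair FARSA and FARS2 differed most, with ratios of 2.31 and 2.60 in Ctrl and 3.22 and 3.75 in shSTAU1. For EPRS1 and PARS2 the mean ratio was 7.88 in Ctrl and 7.08 in shSTAU1, and for MARS1 and MARS2 5.30 and 5.04 against 4.66 and 4.90. MARS2 was at 7.35 and 8.40 CPM in Ctrl and 8.47 and 7.95 in shSTAU1, and WARS2 at 16.1 and 16.7 against 13.8 and 17.3.

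Among the other genes of tRNA charging, most did not pass the test. Of 18 partners, 17 were tested, 1 was called higher and 0 lower by edgeR, beside 2.60% called of all genes, and the list's median log2 fold change was 0.096. The called gene was SSB, the La protein, which binds the ends of new tRNA precursors. It was at 208 and 201 CPM in Ctrl and at 309 and 323 CPM in shSTAU1, with close replicates and no overlap. The log2 fold change was 0.63 (SE 0.12, adjusted p = 0.0427). The adjusted p was 0.0502 with library-size scaling, 0.105 without the filter on low counts, 0.490 without Ctrl replicate 1 and 0.294 without Ctrl replicate 2, with log2 fold changes of 0.57 to 0.65, so the call depends on these choices.

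The cytosolic elongation factors carry charged tRNA to the ribosome and move it along. The 4 of them that were tested had a median absolute log2 fold change of 0.75, against 0.18 for the synthetases. Of 6 cytosolic factors, 4 were tested, and EEF1B2 and EEF1G had 0 counts. Another gene shares 17.4% of the exon bases of EEF1B2, 99.9% of those of EEF1G and 34.0% of those of EEF1D. Whether the counting procedure set the values of these 3 genes was not tested. EdgeR called 0 of the 4, beside 2.60% of all genes, and all 4 had an unadjusted p under 0.05, beside 24.5% of all genes, whose median absolute log2 fold change was 0.33. EEF2, the translocase, was at 730 and 675 CPM in Ctrl and 1169 and 973 in shSTAU1 (log2 fold change 0.61, adjusted p = 0.0611). EEF1A2 was at 0.88 on the log2 scale with overlapping groups, and EEF1D was at -1.57 from fewer than 2 CPM in each library. EEF1A1, named after its values were seen, was at 0.33 on that scale. Of 9 mitochondrial translation factors, 8 were tested. EdgeR, DESeq2 and limma-voom called 0 of them, where edgeR called 2.60% and DESeq2 10.1% of all genes. At an unadjusted p under 0.05 edgeR gave 0 of them, beside 24.5% of all genes. The 3 with the largest values were MTRF1, MRRF and MTRF1L, factors that release or recycle the ribosome, with log2 fold changes of -0.23, -0.22 and 0.18.

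Genes of the amino acid response, a programme of ATF4 that is known to take in several synthetase genes, had a median log2 fold change of -0.15, the lowest of the 4 lists of other genes in the plot of lists. Of 20 genes, 18 were tested and edgeR called 0, beside 2.60% of all genes. XPOT, the tRNA exporter, stands on this list and among the charging partners. At an unadjusted p under 0.05 there were 8 (6 lower, 2 higher), 44.4% beside 24.5% of all genes. DESeq2 called 4, all lower, beside 10.1% of all genes. CHAC1, which degrades glutathione, was at 5.03 and 3.91 CPM in Ctrl and 2.24 and 1.33 in shSTAU1 (log2 fold change -1.32, adjusted p = 0.0849). PSAT1, of serine synthesis, was at 243 and 191 CPM against 88.4 and 138 (log2 fold change -0.94, adjusted p = 0.0655). SLC7A11, the cystine transporter, was at 163 and 111 CPM against 82.9 and 61.9 (log2 fold change -0.92, adjusted p = 0.0655). In all 3 both shSTAU1 libraries lay below both Ctrl libraries.

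Of the 18 tested genes of that list, 10 lay below 0 and 8 above. The mRNA of ATF4 itself, named after its values were seen, was at 101 and 103 CPM in Ctrl and 102 and 111 in shSTAU1 (log2 fold change 0.059), and TRIB3, a pseudokinase induced by ATF4 and likewise named afterwards, was at 17.3 and 15.2 CPM against 9.85 and 8.52 (log2 fold change -0.83, adjusted p = 0.0683). The genes at an unadjusted p under 0.05 in the higher direction were MTHFD2 and SLC7A5, a folate enzyme of mitochondria and a leucine transporter, with log2 fold changes of 0.37 and 0.32. ASNS, the asparagine synthetase, had 15 counts in all and SESN2 had 0, so neither was tested. Of the exon bases of ASNS, 44.6% are shared with another gene, and of those of SESN2, 0%. The edgeR call counts of this list changed with the library left out, and so did those over all genes. On the MYC list (MYC and MYCN, the partner MAX and known targets), the values lay on the other side. There 5 of 5 tested genes were above 0, with a median log2 fold change of 0.43, where 7211 of all 14303 genes were above 0. EdgeR called 0 of the 5, beside 2.60% of all genes. NPM1, a nucleolar chaperone, was at 2244 and 2403 CPM in Ctrl and 3139 and 3804 in shSTAU1 (log2 fold change 0.58, adjusted p = 0.0654), and NCL and ODC1 were at 0.43 and 0.57 on the same scale.

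**Figure D4:**
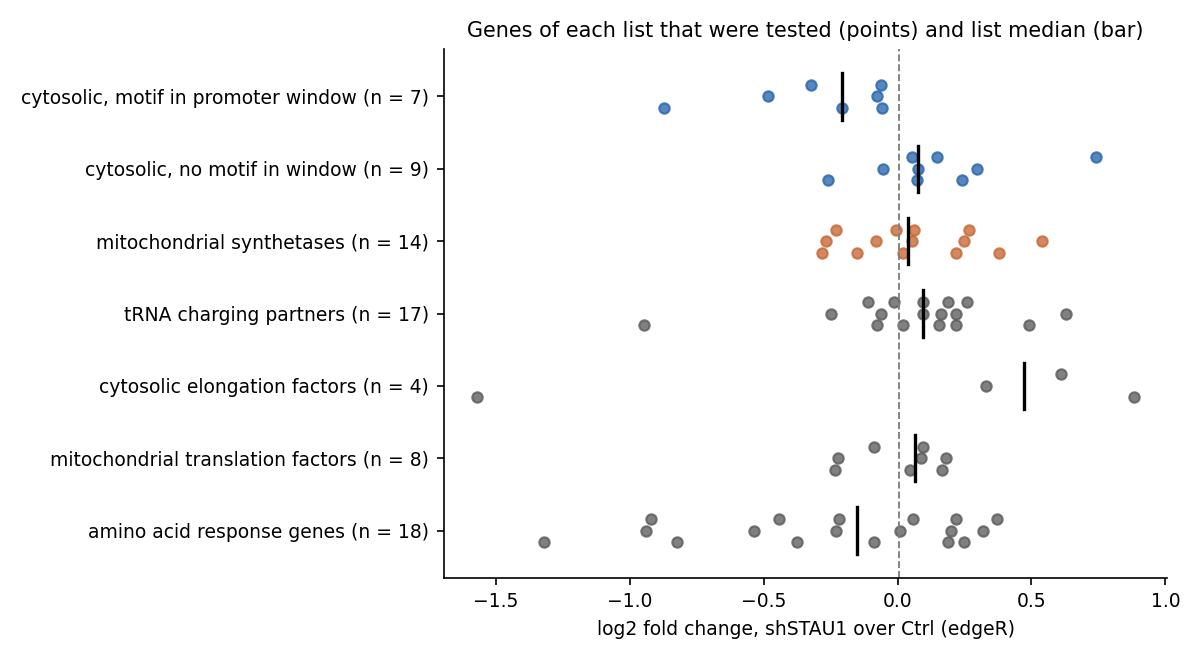
Log2 fold change of shSTAU1 over Ctrl for each tested gene (points) of the synthetase sets and of 4 lists around them, with the list median as a bar and the median of all genes as a dashed line at 0.0059. The cytosolic genes with the response element core lie below 0 with a median of -0.21 (-0.14 without CARS1), those without it have a median of 0.078, and the amino acid response genes reach from -1.32 to 0.37.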

How the data were processed

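Total RNA of 4 SAS libraries was sequenced after TruSeq RNA Exome preparation, a capture of coding exons. The submitters' processing notes name Partek and hg38, and the authors deposited raw counts per Ensembl gene. The aligner, the annotation and the strand setting are not given in the sources used here. All 4 columns matched sample labels. Coordinates, exon overlaps and lengths (of each gene's longest transcript, for levels per kb and for the length and GC correction) came from GENCODE 29 (GRCh38), symbols from a gene name table, and promoter windows from RefSeq (GRCh38.p14).

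The counts were fitted with edgeR 4.0.16 in R 4.3.3 (filterByExpr, TMM, glmQLFit, glmQLFTest) without covariates, since the paper's methods state no model for these libraries, and p-values were adjusted over all 14303 tested genes, which held 99.9% of counts. The common biological coefficient of variation was 19.1%. Libraries held 32206655 to 36301574 counts, and CPM used these totals scaled by TMM. An undetected gene was given a limit of 3 counts per library, which covers counting error only. The 95% confidence intervals of fold changes come from the edgeR fit, which takes in the spread between libraries. In neither group were the 2 libraries alike within counting noise (the chi-square statistic within Ctrl was 25.2 and within shSTAU1 60 for each degree of freedom). On simulated counts for 14303 genes with 200 changed, edgeR recovered 95.5% and made 8 false calls. Recovery at fold changes near the members' median absolute log2 value of 0.18 was not tested. DESeq2 1.42.0, limma 3.58.1, library-size scaling, no filter, length and GC correction, a replicate block, other thresholds and leaving out each library were the alternatives.

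All listed members were accounted for. Values per library are given for members past the threshold, the 5 largest and 3 smallest fold changes per compartment, members untested or above the 95th percentile of level, and pairs of opposite sign with non-overlapping libraries. Of the other lists, called genes or else the 3 largest fold changes were named. Members and lists were chosen with earlier results of these data known. 1 promoter stretch is not reported here.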

Additional observations from a re-analysis of the deposited data

How the results depend on the processing

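Calls depended on the test more than the fold changes did. Over the 32 tested synthetase genes and the alternatives that keep all 4 libraries, 206 of 224 fold changes kept their sign and their side of the threshold. DESeq2 called 1449 genes in all, 2 synthetase genes (2 of them cytosolic) and 4 amino acid response genes. An adjusted p under 0.10 gave 1585, 2 (2 cytosolic) and 4, and a fold change of at least 1.5 with an unadjusted p under 0.05 gave 2098, 1 (1 cytosolic) and 4. Without the filter on low counts edgeR called 11 genes and 0 charging partners, with library-size scaling 404 genes (132 higher, 272 lower, against 161 and 211) and again 0 partners. With the length and GC correction it called 330 (174 higher, 156 lower). Limma-voom called 363. No mitochondrial translation factor was called under any of these. The all-gene median log2 fold change stayed within 0.1 of 0, from -0.072 to 0.056.

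Same-numbered libraries deviated from their group means together (correlation 0.27 over all genes, 0.59 over 4791 well-counted ones), but the labels do not say that a number marks a batch. With the replicate number as a block, edgeR called 4087 genes, 6 synthetase genes (AARS1 and MARS1 lower, FARSA, RARS1, RARS2 and IARS2 higher), of which 4 cytosolic and 2 mitochondrial, and 9 amino acid response genes. The block together with the length and GC correction gave 3687, 4 (2 cytosolic and 2 mitochondrial) and 10.

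With all 4 libraries kept, signs turned in 4 synthetase genes: FARSB to -0.00081 and TARS2 to -0.031 under library-size scaling, IARS1 to 0.0061 and HARS2 to 0.012 under the length and GC correction (IARS1 0.0054 and HARS2 0.013 with the block added). With 1 library left out, where the lone library is assumed to vary like the other group, edgeR called 0 to 2780 genes, 0 to 3 synthetase genes (0 to 3 cytosolic), 0 to 2 charging partners and 0 to 8 amino acid response genes. The 0 came without Ctrl replicate 1, where 1502 genes had an unadjusted p under 0.05. STAU1 ranged from -2.60 to -2.58 and the cytosolic median from -0.16 to 0.027. Fold changes that changed sign ranged from -0.031 to 0.13 (FARSB), -0.17 to 0.055 (GARS1), -0.23 to 0.10 (HARS1), -0.13 to 0.015 (IARS1), -0.17 to 0.28 (KARS1), -0.19 to 0.030 (NARS1), -0.082 to 0.26 (SARS1), -0.16 to 0.10 (YARS1), -0.085 to 0.21 (CARS2), -0.66 to 0.23 (EARS2), -0.086 to 0.082 (HARS2), -0.037 to 0.16 (MARS2), -0.071 to 0.12 (TARS2) and -0.26 to 0.082 (WARS2).

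PARS2 and CARS1 had the fewest counts of the tested members, at most 98 and 22 in a library, and the 3 members without counts have no fold change. Of 15 pairs, the cytosolic gene was higher per kb in 13 with the longest transcript, 14 with the transcript of the longest coding sequence and 13 with merged exons, the last 2 lengths chosen after seeing the data.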
